A study of Glycine max with 8 samples.

Results

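Of 21502 regions on chromosomes 1 to 20 of soybean at which any of 4 FLAG-tagged SNAP transcription factors (TFs) had a ChIP-seq peak, 570 were shared by most libraries and lay far from genes. These distal regions were found by merging peaks that overlapped by at least 1 bp, keeping the 2930 merged regions with peaks from 6 or more of the 8 libraries, and then keeping those with a midpoint more than 2 kb from every annotated gene. They made up 19.5% of the shared regions, and the other 2360 shared regions lay inside a gene or within 2 kb of one. They were thus selected on the number of libraries with a peak and on the distance to genes, and both are given as descriptions.

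The 8 libraries were 2 biological replicates each of FLAG-SNAP1, FLAG-SNAP2, FLAG-SNAP3 and FLAG-SNAP4. According to the methods of the study, each coding sequence was fused to FLAG behind the soybean promoter pM4 and brought into roots of the cultivar Williams 82 by Agrobacterium K599, which gives transgenic hairy roots on a plant whose shoot is not transgenic. Roots bearing nodules were fixed, chromatin was sheared and recovered with an antibody against FLAG, and adapters were added on the beads by the transposase Tn5. The archive labels call the tissue root nodule and the genotype a mutant of the SNAP gene in question, whereas the methods describe tagged TFs, and the description in the methods is used here. All 8 libraries carry a tagged TF driven by the same promoter, the roots' nitrogen level was not named, and no input or untagged library was analysed here. Recovery that depends on the TF and recovery at these regions with any tag therefore cannot be told apart.

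NAC TFs are a large family of plant-specific proteins that bind DNA through a conserved N-terminal domain, and members of the NAP branch are known for roles in senescence. The SNAP proteins are soybean NAC TFs studied for their part in nodules, the organs in which rhizobia fix nitrogen and which senesce early when nitrate is plentiful. TFs act at promoters and also at distal elements such as enhancers. Soybean chromosomes carry most of their genes near both ends and have long, repeat-rich middle stretches around the centromere where genes are sparse.

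The strength of a peak is given in 2 ways. The fold enrichment is the ratio of signal at the summit to the local background as the authors' peak caller wrote it, and the percentile is the place of that ratio among all peaks of the same library, with 100 for the strongest. Peaks per library numbered 3628 to 9332, and read depth is not known from the peak lists, so a region without a peak may have been missed for lack of reads. The distal regions held 5.89 to 9.15% of the peaks of a library.

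The distal regions differed among themselves in how many libraries had a peak. All 8 libraries had one at 192 regions, 7 had one at 158 and 6 at 220, and a further 292 distal regions with peaks from 5 libraries fell just short. FLAG-SNAP1 had peaks at 551 and 554 of the 570 regions in its replicates, FLAG-SNAP2 at 535 and 538, FLAG-SNAP3 at 451 and 328, and FLAG-SNAP4 at 484 and 521. Replicate 2 of FLAG-SNAP3 thus lacked the most of them, and it also had the fewest peaks in all. Both replicates had a peak at 541 regions in FLAG-SNAP1, 506 in FLAG-SNAP2, 293 in FLAG-SNAP3 and 442 in FLAG-SNAP4. The more libraries shared a region, the less often it was distal above 5 libraries: 27.2% of merged regions with peaks from 5 libraries were distal, 23.9% of those from 6, 21.5% of those from 7 and 15.1% of those from 8. Regions found in 1 library were distal in 25.9% of cases.

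The distance from the midpoint to the nearest gene had a median of 6308 bp and a longest value of 171966 bp, and 153 regions (26.8%) lay more than 10 kb from any gene. Just inside the limit, regions at 2020.5, 2023.5 and 2040.5 bp had mean fold enrichments of 4.47, 4.88 and 4.55. Just outside it, regions at 1987, 1977.5 and 1942.5 bp had 4.77, 5.73 and 4.36. The values on both sides were thus of similar size. The nearest gene was protein-coding for 474 regions (83.2%), against 71.2% of evenly spaced positions that were also more than 2 kb from genes. It was a small nucleolar RNA (snoRNA) gene for 18 regions (3.16%), against 12.5% of those positions. Among all annotated genes, 79.8% were protein-coding and 2.85% were snoRNA genes, so the distal regions stood near these shares. The evenly spaced positions lay in surroundings with fewer genes.

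The distal regions followed the genes along the chromosomes, though less closely than shared regions near genes did. A median of 88 genes lay within 500 kb to each side of a distal region (interquartile range 41.25 to 110), against 104.5 genes for shared regions near genes and 30 genes for evenly spaced distal positions. The middle stretch of each chromosome, from 40 to 70% of its length, held 104 of the 570 distal regions (18.2%). It held 9.28% of the shared regions near genes and 41.2% of the evenly spaced distal positions. Distal regions with peaks in all 8 libraries lay in sparser surroundings, with a median of 68 genes, against 95 and 93 genes for those in 7 and 6 libraries. Of the 192 in all 8 libraries, 46 (24.0%) lay in the middle stretch. Chromosome 10 held the most distal regions, 40, and chromosome 4 the fewest, 11, which were 25.5 and 9.32% of the shared regions of each.

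**Figure D1:**
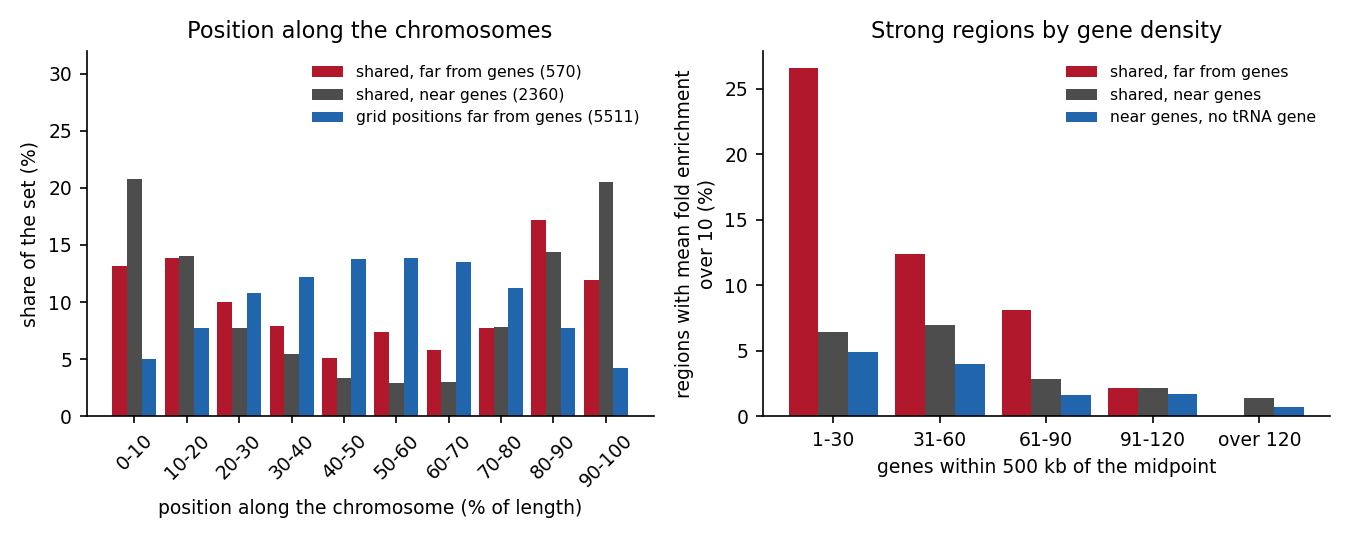
Left, the share of each set of regions (%) in 10 equal stretches along the chromosomes; right, the share of shared regions with a mean fold enrichment over 10 (%) by the number of genes within 500 kb. Distal regions lay between the other 2 sets in the middle stretches, and 26.6% of those among 30 or fewer genes passed a fold enrichment of 10, against 6.42% of shared regions near genes.

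Within a library, the peaks of the distal regions were stronger than those of shared regions near genes. The median percentile of fold enrichment averaged 75.7 ± 4.22 in the distal regions and 70.8 ± 4.77 in shared regions near genes (SD, n = 8 libraries). The difference was 4.92 ± 3.79 points (SD) and positive in 7 of 8 libraries (two-sided exact sign-flip permutation test over the libraries, p = 0.0156, adjusted for 3 such tests p = 0.0234). FLAG-SNAP3 replicate 1 was the exception, at 71.8 in the distal regions and 73.1 near genes. Among regions with peaks in all 8 libraries the difference was 2.28 points and missed the threshold (exact permutation p = 0.0938). Leaving out a library and asking for 6 of the remaining 7 gave 1.58 to 4.35 points, and the call was lost for each library left out except FLAG-SNAP3 replicate 1. With the 570 regions kept as they were, it held in every case. The direction was not particular to shared regions. The median of the mean percentile was 42.3 for distal and 33.9 for other merged regions with peaks from 1 library. It was 59.5 against 47.9 with peaks from 5 libraries, and 82.1 against 81.4 with peaks from all 8.

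Many of the shared regions near genes lie at transfer RNA (tRNA) genes, whose peaks rank high in these libraries. Leaving out the 619 regions with a tRNA gene within 200 bp was tried once results were known. The median percentile of the 1741 other regions near genes was then 49.9 to 60.5 in a library. The distal regions stood at 69.2 to 82.2, and the libraries of both sets did not overlap. The difference was 18.8 ± 3.77 points (SD, n = 8), positive in 8 of 8 libraries (exact permutation p = 0.00781, the smallest the test can give, and 0.0117 adjusted for 6 tests chosen after the data were seen). The libraries share the regions and replicates share a TF, so these p-values describe constancy over 8 libraries and not over independent sites or TFs. With the 4 TFs as units, the smallest p a sign-flip test could give is 0.125. This holds for every sign-flip test given here. The tRNA regions rank high and were left out of the set near genes alone, so the gap was bound to widen. The test without them therefore adds no separate support for stronger distal peaks.

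**Figure D2:**
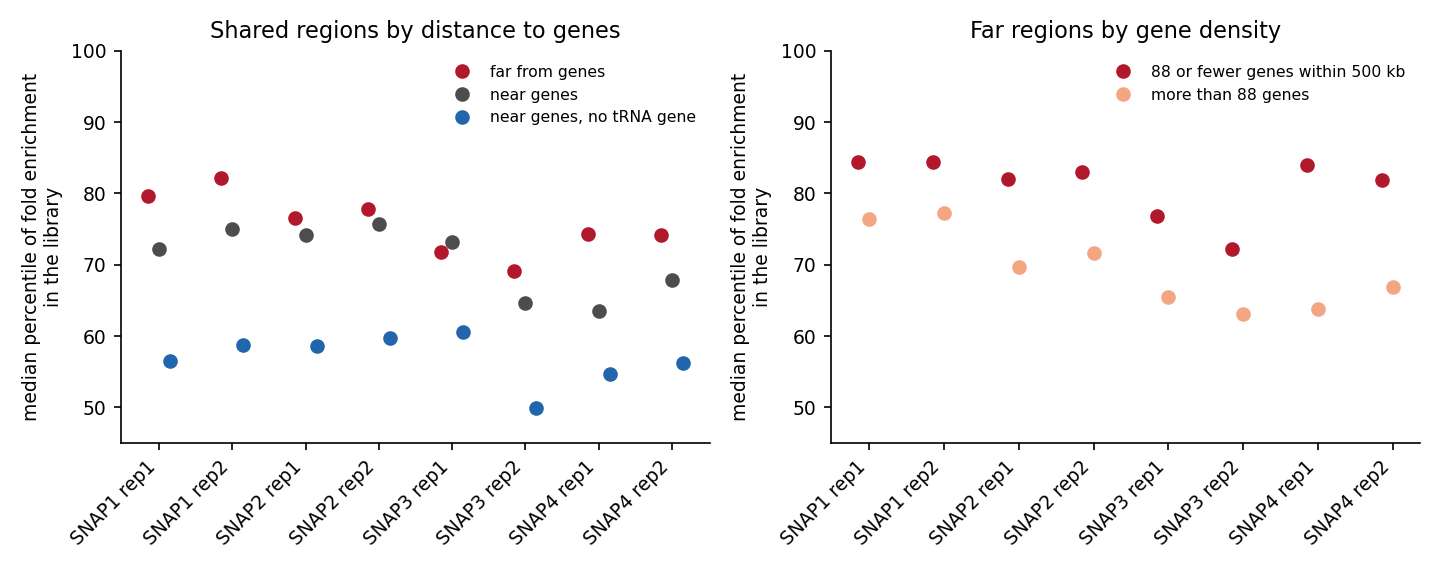
Each point is the median percentile of fold enrichment (0 to 100) of a set of regions in 1 library, with shared regions by distance to genes on the left and distal regions by gene density on the right. Distal regions stood above shared regions near genes in 7 of 8 libraries, and distal regions with 88 or fewer genes within 500 kb stood above the others in all 8.

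The strongest distal regions lay where genes were sparse. A mean fold enrichment over 10 was reached by 48 distal regions (8.42%), against 66 shared regions near genes (2.80%), and 47 of the 48 had peaks in all 8 libraries. The 48 had a median of 33.5 genes within 500 kb, and 18 of them (37.5%) lay in the middle stretch of the chromosome. Of the 79 distal regions with 30 or fewer genes within 500 kb, 21 (26.6%) passed a fold enrichment of 10, whereas 4 of 182 with 91 to 120 genes (2.2%) and 0 of 89 with more than 120 genes did. The same shares near genes were 6.42, 2.17 and 1.39%. Chromosome 7 held 7 of the 48 regions, and chromosomes 10, 11 and 13 held 0. Over the 570 distal regions, the mean percentile and the number of genes within 500 kb had a Spearman rho of -0.35, against -0.06 over the 2360 shared regions near genes and -0.14 over the 1741 of these without a tRNA gene, given as a description because all regions come from the same libraries.

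**Figure D3:**
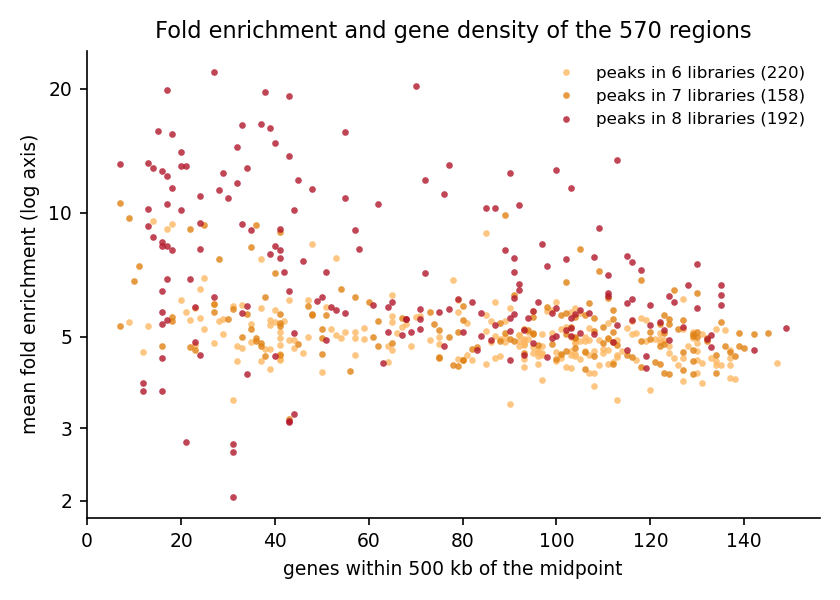
Each point is 1 of the 570 distal regions, with the number of genes within 500 kb of its midpoint on the horizontal axis and its mean fold enrichment (log axis) on the vertical axis, coloured by the number of libraries with a peak. Fold enrichments over 10 lie mostly on the left among regions found in all 8 libraries, and the highest is 21.9.

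Split at their median of 88 genes, a split chosen after the data were seen, distal regions among fewer genes had a higher median percentile in every library. In the FLAG-SNAP4 replicates it was 84.0 and 81.9 among fewer genes, against 63.8 and 66.8 among more genes. FLAG-SNAP1 had 84.4 and 84.4 against 76.3 and 77.2, FLAG-SNAP2 had 82.0 and 83.0 against 69.6 and 71.6, and FLAG-SNAP3 had 76.9 and 72.2 against 65.5 and 63.1. The 2 sets did not overlap within any TF. Over the 8 libraries the difference was 11.8 ± 4.23 points (SD; exact sign-flip permutation p = 0.00781, adjusted 0.0117). For shared regions near genes, split at the same 88 genes, it was 6.08 ± 1.74 points, and the difference between these differences was 5.77 ± 4.42 points, positive in 8 of 8 libraries (exact permutation p = 0.00781, adjusted 0.0117). The excess was small in FLAG-SNAP1, whose replicates had 8.11 and 7.12 points in distal regions and 7.69 and 6.44 near genes. FLAG-SNAP2 had 12.4 and 11.3 against 5.37 and 8.26, and FLAG-SNAP3 had 11.4 and 9.10 against 3.56 and 4.94. FLAG-SNAP4 had 20.2 and 15.1 against 7.85 and 4.54.

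The size of the difference between distal regions among fewer and among more genes varied with the TF, though the test of this was not stable. It averaged 17.7 ± 3.66 points in FLAG-SNAP4, 11.9 ± 0.763 in FLAG-SNAP2, 10.2 ± 1.62 in FLAG-SNAP3 and 7.61 ± 0.695 in FLAG-SNAP1 (SD, n = 2 each; one-sided exact permutation over all pairings of the 8 libraries, p = 0.0190). The order of FLAG-SNAP2 and FLAG-SNAP3 lay within their spread. The call was lost without either replicate of FLAG-SNAP1, FLAG-SNAP2 or FLAG-SNAP3 (exact permutation p = 0.162 to 0.229), although the range over the TF means, 10.04 points with all libraries, stayed at 9.55 to 10.5. It was also lost at a q-value of 0.01 (10.6 points, exact permutation p = 0.0667) and with regions in all 8 libraries alone (9.45 points, exact permutation p = 0.114). With 2 libraries a TF, the smallest p this test can give is 0.00952.

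Distal regions were also common among the 100 strongest peaks of a library. Shared regions held 94 to 100 of these peaks, and 19.5% of shared regions were distal (15.1% of those in all 8 libraries). Libraries had 3628 to 9332 peaks, so the 100 strongest were not the same share of each. Distal regions held 52 and 51 of the 100 in the FLAG-SNAP4 replicates, against 40 and 38 in FLAG-SNAP1, 36 and 34 in FLAG-SNAP2 and 35 and 27 in FLAG-SNAP3. Both FLAG-SNAP4 libraries thus stood above the other 6. The range over the TF means was 20.5 peaks (one-sided exact permutation over all pairings, p = 0.0190, chosen after the data were seen). The call was lost without FLAG-SNAP3 replicate 2 (16.5 peaks) and without either replicate of FLAG-SNAP1 or FLAG-SNAP2 (20.5 peaks; exact permutation p = 0.0667 to 0.219 over these 5 cases). For the 192 regions in all 8 libraries, the median percentile was 87.4 ± 2.39 in FLAG-SNAP4, 90.2 ± 1.14 in FLAG-SNAP1, 89.1 ± 1.98 in FLAG-SNAP2 and 82.6 ± 6.28 in FLAG-SNAP3 (SD, n = 2 each), which did not pass the test over pairings (range 7.63 points, exact permutation p = 0.229). The test passed with all 570 regions (10.4 points, exact permutation p = 0.00952), with centred log2 ratios (0.14, p = 0.0476 in the same exact test) and without FLAG-SNAP3 replicate 1 or 2 (11.8 and 8.55 points, exact permutation p = 0.0286 and 0.0190). With all 570 regions, the median of a library covered only the 328 to 554 regions with a peak in it. The TFs were thus compared there on unlike sets of regions.

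The 5 distal regions with the highest mean percentile stood near the top of every list. On chromosome 15 from 28347488 to 28347951 (build Wm82 a4.v1, as for all positions given), 3048.5 bp from the protein-coding gene LOC100794164 and with 27 genes within 500 kb, the fold enrichment was 25.05 and 23.6 in FLAG-SNAP4, 24.5 and 23.8 in FLAG-SNAP1, 19.3 and 19.4 in FLAG-SNAP2, and 22.6 and 17.3 in FLAG-SNAP3. Its peak ranked 1 to 4 in every library. Chromosome 8 from 37750898 to 37751368, 33.0 kb from the snoRNA gene LOC113002440, gave 21.4 and 23.3 in FLAG-SNAP4, 21.5 and 22.3 in FLAG-SNAP1, 16.3 and 18.5 in FLAG-SNAP2, and 17.0 and 16.3 in FLAG-SNAP3. The regions on chromosome 6 from 23544085 to 23544641, on chromosome 1 from 7736852 to 7737440 and on chromosome 7 from 17243045 to 17243521 had mean fold enrichments of 19.9 ± 2.48, 19.2 ± 2.52 and 20.3 ± 3.52 (SD, n = 8). Protein-coding genes LOC100791672, LOC100812458 and LOC121175121 were their nearest genes. In all 5 regions the lowest library belonged to FLAG-SNAP3, and each also passed the test over the TFs described next (limma F test, adjusted p = 0.00444 to 0.0454).

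Whether the TFs differed in fold enrichment at single regions was tested with limma on log2 fold enrichment over all 1274 shared regions with peaks in all 8 libraries, near genes or not, after each library was centred on its median. The F test over the 4 TFs called 17.7% of these regions at a Benjamini-Hochberg adjusted p under 0.05. Of the 192 distal regions, 56 were called (29.2%), against 169 of the 1082 near genes (15.6%). FLAG-SNAP4 was above the mean of the other 3 TFs at 49 distal regions (25.5%), where 9.5% of all regions were called in that direction, and below it at 3, where 2.12% were. FLAG-SNAP3 was below the mean of the other 3 at 32 distal regions (16.7%), where 5.81% of all regions were called, and above it at 9, where 4% were. FLAG-SNAP1 was above at 1 and below at 4 (0.706 and 1.49% of all regions), and FLAG-SNAP2 above at 0 and below at 1 (0 and 0.157%). At an unadjusted limma p under 0.05, FLAG-SNAP2 was above at 3 distal regions and 58 of all regions. The 4 contrasts share the same libraries, so high FLAG-SNAP4 values lower the others' contrasts.

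These counts depend on the centring. The median log2 difference of FLAG-SNAP4 from the other 3 was 0.21 over the distal regions and 0.07 over all 1274 regions. Without centring the median over all regions moved to -0.26, since the FLAG-SNAP4 libraries have lower ratios as a whole, and the distal regions stood at -0.12. FLAG-SNAP4 was then above the others at 15 distal regions and below at 21, against 49 and 3 with centring, so the share of higher calls was 41.7% against 94.2%. FLAG-SNAP1 was above at 13 and below at 3 without centring, against 1 and 4 with it, and FLAG-SNAP3 above at 13 and below at 15, against 9 and 32. The median of FLAG-SNAP3 over the distal regions was 0.03 without centring and -0.11 with it. Without centring the F test called 55 of the 192 distal regions, of which 36 were also called with it. Of all 1274 regions, 34.9% were called without centring and 17.7% with it. Without centring, distal regions were thus not called more often than all regions. With the percentile in place of the ratio 4 of the 192 distal regions were called, and 1.96% of all regions, so the shares were close. FLAG-SNAP4 was then above at 1 distal region and below at 2. Without FLAG-SNAP4 replicate 1 the count of regions above in FLAG-SNAP4 was 11, and without FLAG-SNAP3 replicate 1 or 2 the count below in FLAG-SNAP3 was 16 or 14.

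**Figure D4:**
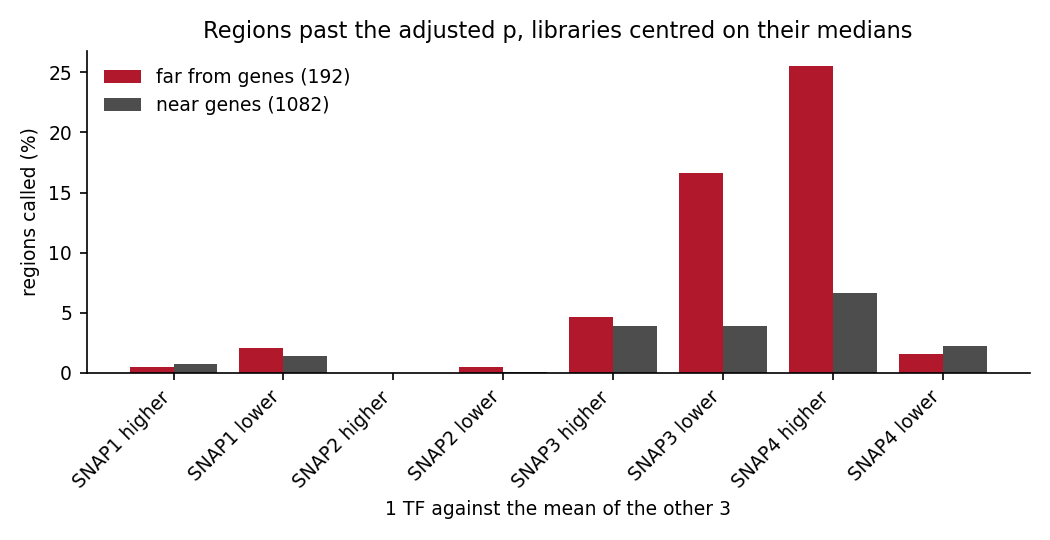
The bars give the share of regions (%) with a limma adjusted p under 0.05 for each TF above or below the mean of the other 3, in the 192 distal regions and the 1082 shared regions near genes, with libraries centred on their medians. The highest bar is FLAG-SNAP4 above the others, with 49 distal regions, and without centring that count was 15.

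Called distal regions were strong, narrow and set among few genes. The 56 regions had a median fold enrichment of 10.7, a median width of 526.5 bp and a median of 39 genes within 500 kb. The 136 regions that were not called had medians of 5.76, 671.5 bp and 79.5 genes. The 169 called regions near genes were not described in this way, so the profile cannot be called particular to distal regions. The call rates of both sets were also not matched for fold enrichment. It passed 10 at 8.42% of the 570 distal regions and at 2.80% of the 2360 shared regions near genes. The log2 differences of the 49 regions above in FLAG-SNAP4 ran between 0.43 and 1.45 with a median of 0.61. For the 32 regions below in FLAG-SNAP3 they ran between -1.03 and -0.42 with a median of -0.58. After centring, the highest TF mean was that of FLAG-SNAP4 at 44 of the 56 regions and the lowest that of FLAG-SNAP3 at 38. Without centring, the same 56 regions had their highest TF mean in FLAG-SNAP4 at 29, in FLAG-SNAP1 at 17 and in FLAG-SNAP3 at 10, and the lowest in FLAG-SNAP3 at 28.

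The region with the smallest adjusted p lay on chromosome 14 from 33731028 to 33731550, 15.3 kb from the protein-coding gene LOC100798031. Its fold enrichment was 12.6 and 14.7 in FLAG-SNAP4, against 7.96 and 7.63 in FLAG-SNAP1, 5.66 and 6.08 in FLAG-SNAP2, and 5.21 and 5.44 in FLAG-SNAP3. The FLAG-SNAP4 libraries did not overlap the other 6, and their peaks ranked 68 and 43 there, against 524 to 2433 in the others. On the centred log2 scale FLAG-SNAP4 was 1.45 ± 0.13 (SE) above the mean of the other 3 (limma F test, adjusted p = 1.24e-05). This was the only one of the 10 regions named here that was also called on percentiles.

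A similar order was seen on chromosome 20 from 9424151 to 9424527, 50.9 kb from the protein-coding gene LOC100813283. There the fold enrichment was 16.2 and 16.7 in FLAG-SNAP4, against 11.7 and 15.3 in FLAG-SNAP1, 7.40 and 6.08 in FLAG-SNAP2, and 8.33 and 6.04 in FLAG-SNAP3. FLAG-SNAP4 was again highest in both replicates, by 1.26 ± 0.15 (SE) on the log2 scale (limma F test, adjusted p = 7.50e-05). On chromosome 18, FLAG-SNAP4 stood at 16.2 and 17.5 from 19404685 to 19405043, against 7.30 to 11.7 in the other 6 libraries. It stood at 12.6 and 14.3 from 31187947 to 31188471, against 5.27 to 10.6 in the others. The nearest genes of these regions, LOC113000244 and LOC113000334, encode snoRNAs. Regions on chromosome 2 from 43472839 to 43473239, near LOC102669634, and on chromosome 7 from 38907520 to 38907887, near LOC102659551, also had FLAG-SNAP4 above by 0.98 ± 0.15 and 0.96 ± 0.17 (SE; limma F test, adjusted p = 0.00119 for both). Quantile normalization took the call of the F test away from each (limma F test, adjusted p = 0.120 and 0.0518). On chromosome 7 the libraries overlapped, with 12.1 and 15.1 in FLAG-SNAP4 and 13.9 and 11.7 in FLAG-SNAP1.

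At 3 of the 10 regions the largest difference was a low FLAG-SNAP3. On chromosome 5 from 9080613 to 9081124, 12.9 kb from the snoRNA gene LOC113001774, FLAG-SNAP3 had 8.39 and 8.58, against 17.0 and 17.4 in FLAG-SNAP1, 14.3 and 12.9 in FLAG-SNAP2, and 17.1 and 16.4 in FLAG-SNAP4. Both FLAG-SNAP3 libraries lay far below the other 6, by 1.03 on the log2 scale with an SE of 0.13 (limma F test, adjusted p = 0.000238). On chromosome 14 from 35832293 to 35832748, near the protein-coding gene LOC100805277, it had 8.46 and 7.47, against 12.8 to 17.6 in the others. On chromosome 1 from 29763226 to 29763702, near the snoRNA gene LOC112997881, FLAG-SNAP3 had 6.47 and 6.64, against 7.71 and 8.92 in FLAG-SNAP2, 14.7 and 13.6 in FLAG-SNAP1, and 13.5 and 12.5 in FLAG-SNAP4. There FLAG-SNAP2 was also below both FLAG-SNAP1 and FLAG-SNAP4.

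The 10th region was low in FLAG-SNAP1 instead. It lay on chromosome 15 from 19651304 to 19651836, near the protein-coding gene LOC100781614. Its fold enrichment was 6.37 and 5.09 in FLAG-SNAP1, against 8.71 and 9.33 in FLAG-SNAP2, 8.46 and 9.80 in FLAG-SNAP3, and 10.5 and 9.86 in FLAG-SNAP4. No FLAG-SNAP1 value reached those of the other libraries, and the difference was -0.92 ± 0.14 (SE) on the log2 scale (limma F test, adjusted p = 0.00119).

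**Figure D5:**
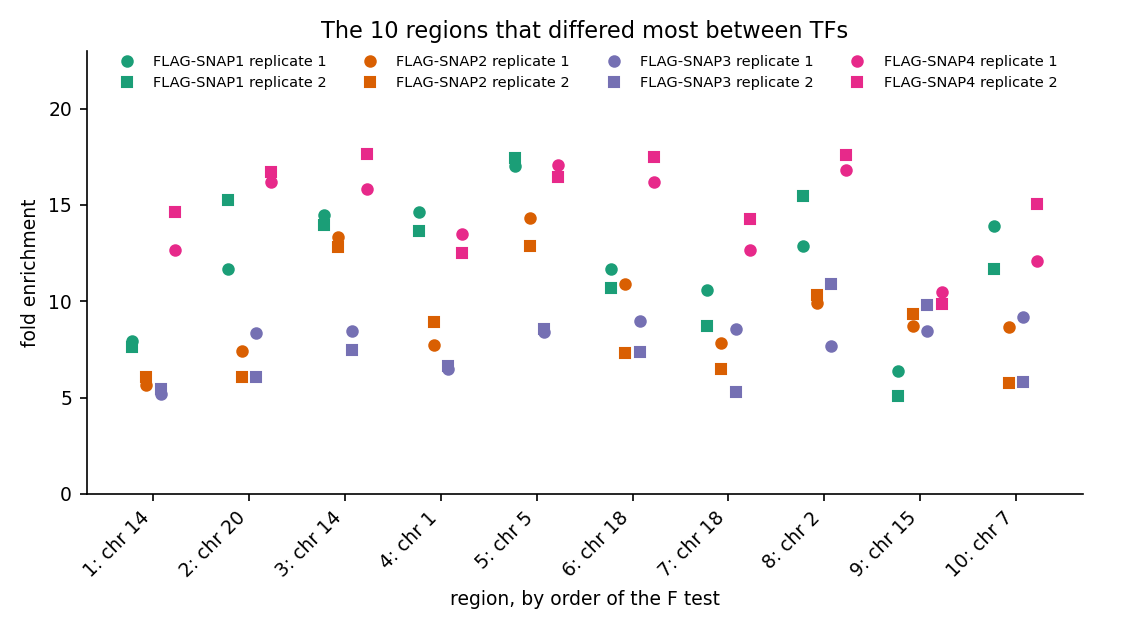
Fold enrichment in each of the 8 libraries at the 10 distal regions with the smallest adjusted p of the F test, in that order. FLAG-SNAP4 reaches 12.6 and 14.7 at the first, against at most 7.96 in the others, and FLAG-SNAP3 stays at 8.39 and 8.58 at the fifth.

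Peaks in distal regions were narrower than those near genes. The median peak width of a library averaged 379 ± 58.8 bp in the distal regions and 416 ± 62.6 bp in shared regions near genes, a difference of -37.5 ± 9.41 bp (SD, n = 8) with the same sign in 8 of 8 libraries (exact sign-flip permutation p = 0.00781, adjusted 0.0234). Among regions with peaks in all 8 libraries it was -17.2 bp and missed the threshold (exact permutation p = 0.102). The summits also lay closer together. Their median distance from the median summit of the region averaged 34.2 ± 5.30 bp in distal regions and 38.3 ± 4.23 bp near genes, and was smaller in 7 of 8 libraries (exact permutation p = 0.0391 before and after adjustment). That call was lost at 5 kb from genes (-3.84 bp) and without FLAG-SNAP1 replicate 1 or 2, FLAG-SNAP3 replicate 1 or 2, or FLAG-SNAP4 replicate 1 (-1.0 bp in this last case). All summits lay within 100 bp of the median summit at 192 distal regions (33.7%) and at 882 shared regions near genes (37.4%).

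Merged over the libraries, distal regions were 275 to 2202 bp wide with a median of 611 bp. The widest, on chromosome 12 from 34742341 to 34744542, lay 5792 bp from the protein-coding gene LOC100499641, and held 14 peaks from the 8 libraries with fold enrichments of 4.79 to 6.54. The next lay on chromosome 8. One ran from 31813495 to 31815533, nearest to the snoRNA gene LOC113002456, with 12 peaks and fold enrichments of 3.31 to 4.53. Another, from 4447019 to 4449057 near LOC100805330, had peaks in the FLAG-SNAP1, FLAG-SNAP2 and FLAG-SNAP4 libraries at 3.03 to 4.52 and in neither FLAG-SNAP3 library. Wider regions were thus not stronger. The 56 regions wider than 1 kb had a median fold enrichment of 5.02, against 5.22 for those up to 1 kb wide. The 48 regions with a fold enrichment over 10 had a median width of 542.5 bp. Over the 570 distal regions, the mean percentile and the width had a Spearman rho of -0.24, against -0.42 over the shared regions near genes.

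The regions farthest from genes were of ordinary to high strength. The farthest lay on chromosome 8 from 26027514 to 26027818, 171966 bp from the snoRNA gene LOC113002449, with fold enrichments of 9.31 and 6.27 in FLAG-SNAP4, 7.96 and 7.12 in FLAG-SNAP1, 8.33 and 6.04 in FLAG-SNAP3 and 6.97 in FLAG-SNAP2 replicate 1. FLAG-SNAP2 replicate 2 had no peak there. On chromosome 9 from 13446562 to 13448275, 90683.5 bp from the protein-coding gene CYP50, all 8 libraries had a peak, at 4.24 to 6.03. A region on chromosome 1 from 9779907 to 9780454, 80101.5 bp from the snoRNA gene LOC112997839, was found in 6 libraries at 4.43 to 7.27.

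Some distal regions lay close to one another. Of the 570, 149 (26.1%) had another within 100 kb and fell into 66 groups, 55 of them pairs, and 54 had another within 10 kb. The largest group held 6 regions in 35.6 kb of chromosome 17, from 23671308 to 23706942, with 31 to 34 genes within 500 kb and with LOC121173861 (protein-coding) or TRNAM-CAU, a gene for a methionine tRNA, as the nearest gene. Its members differed widely in strength. The first, ending at 23672077, had fold enrichments of 1.80 to 2.62 and was among the weakest peaks of each library. The last, starting at 23706084, had 11.0 and 11.9 in FLAG-SNAP4, 14.0 and 14.8 in FLAG-SNAP1, 11.9 and 13.5 in FLAG-SNAP2, and 11.3 and 13.9 in FLAG-SNAP3, and ranked 98 or higher in every library. The other 4 had mean fold enrichments of 2.63, 3.51, 2.75 and 4.05, and none of the 5 regions in all 8 libraries was called between TFs. A group of 5 on chromosome 10, from 15609143 to 15630244 with 16 to 18 genes within 500 kb, had peaks in all 8 libraries at every member and mean fold enrichments of 4.45 to 8.11.

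A few distal regions had a low ratio in every library. A mean percentile under 10 was found at 8 of them, of which 7 had peaks in all 8 libraries and 7 belonged to groups, including 4 within 4.38 kb of chromosome 10 from 34672367 to 34676748 at 3.11 to 3.24. Their median fold enrichment was 2.95, yet their median −log10 q-value was 10.1, against 5.91 for all distal regions. Of the 51 shared regions near genes with so low a percentile, 9 (17.6%) had peaks in all 8 libraries and the median −log10 q-value was 4.80. The number of reads behind these peaks was not analysed here.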

How the data were processed

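Sonicated chromatin from hairy roots with nodules was recovered with a FLAG antibody and tagged with Tn5, giving 8 libraries, 2 for each TF. The authors trimmed reads with Trim Galore 0.6.6, used Bowtie2 2.3.4.3 for alignment to Wm82 a4.v1, kept properly paired, uniquely mapped reads (mapping quality above 30) and called peaks in each library with MACS2 2.2.7.1 at a q-value of 0.05, without pooling. An input library and the removal of duplicates are not given in the sources used here, and duplicates or reads lost from repeats would change the ratios. The deposited lists give the fold enrichment as a ratio, −log10 p-values and −log10 q-values per the file format, a score and the summit. The authors' score was read and not tested. No read numbers were used, so precision rests on the 2 libraries per TF.

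Distances were measured to genes annotated by RefSeq on Glycine_max_v4.0, a table with gene types and no strand or product. Genes of every type counted. The strongest peak of a library stood for it in a region. Chromosome length was taken as the end of the last annotated gene, and even positions lay every 100 kb. Tests were limma 3.58.1 in R 4.3.3 with Benjamini-Hochberg adjustment, exact sign-flip permutation over libraries, and exact permutation over all pairings. They were tested on simulated data. Python 3.11.15, numpy 2.4.6, pandas 2.3.3, SciPy 1.17.1 and matplotlib 3.10.9 were used. The regions named are the 5 strongest by mean percentile, the 3 farthest from genes, the 3 widest, the largest group and the 10 with the smallest adjusted p, plus 2 groups on chromosome 10 chosen after their values were seen. The regions, lists and rules were chosen with earlier results of these data known.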

Additional observations from a re-analysis of the deposited data

Results flagged for a closer look

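Peaks on scaffolds outside chromosomes 1 to 20 were left out of every comparison. They merged into 73 regions, of which 11 had peaks from 6 or more libraries and 5 from all 8, so that sharing was also present outside the regions described. The 11 had mean fold enrichments of 3.90 to 14.8 (median 5.49) and a median of their mean percentiles of 68.3. No control library was analysed with which to compare them.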

How the results depend on the processing

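The number of distal regions was 862 with 5 or more files, 350 with 7 or more and 192 with all 8, 377 at 5 kb from genes and 900 with protein-coding genes alone. It was 363 to 511 without 1 library. The median number of genes around them was 16 within 100 kb, 74 with protein-coding genes alone or at 5 kb, 68 in all 8 files, and 80 to 87 without 1 library. The clustered share was 19.3% at 50 kb, 79.3% at 1 Mb, 21.4% in all 8 files and 20.7 to 24.5% without 1 library. Values with all 8 files were 2.28 points for the percentile against shared regions near genes, -17.2 bp for the width and 9.45 points for the TF difference in gene-poor against gene-rich regions, which was 10.6 at a q-value of 0.01, and none of these passed its threshold. The summit offset was -3.84 bp at 5 kb. Without 1 library these ranged from 1.58 to 4.35 points for the percentile, -39.6 to -25.1 bp for the width, -5.29 to -1.0 bp for the offset, 7.45 to 12.6 points for the TF difference in gene-poor against gene-rich regions (10.5 and 9.55 without FLAG-SNAP1 replicate 1 and 2, and 10.04 without 1 library of FLAG-SNAP2 or FLAG-SNAP3) and 16.5 to 24.5 for peaks among the 100 strongest (20.5 without 1 library of FLAG-SNAP1 or FLAG-SNAP2). The TF difference in median percentile passed with all 570 regions, each library over those with a peak in it (10.4 points). It also passed with centred log2 ratios (0.14) and without FLAG-SNAP3 replicate 1 or 2, within 6.68 to 11.8 points without 1 library.

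The F test called 18 distal regions after quantile normalization, 4 on percentiles and 37 to 62 without 1 library, with the low end without FLAG-SNAP4 replicate 1. FLAG-SNAP4 was higher at 15 without centring, 9 after quantile normalization, 1 on percentiles and 11 to 52 without 1 library. FLAG-SNAP3 was lower at 15, 13, 9 and 14 to 36 in the same settings, and at 50 with 6 or more files. The causes were not tested. With 6 or more files, 470 distal regions were tested in place of 192. The count of 50 there thus cannot be set directly against the 32 of 192 in the main setting. The split between higher and lower calls turned for FLAG-SNAP4 (15 and 21 without centring, 1 and 2 on percentiles) and for FLAG-SNAP1 (13 and 3 without centring). The replicate numbers did not pair the libraries (correlations of deviations between TFs of -0.08 to 0.04 over 6 pairs). With a replicate block 54 distal regions were called, all among the 56, where 16.2% of all regions were called. Quantile normalization gave calls at 5.81% of all 1274 regions and at 18 of the 192 distal regions. Percentiles gave calls at 1.96% of all regions and at 4 of the 192.

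The paper gives only a minimum number of reads over all samples. The depth of each library is unknown, so missing peaks in FLAG-SNAP3 replicate 2 cannot be told from missing signal. All libraries carried a tag under the same promoter, ratios depend on the enrichment of each library, the annotation decides which regions are distal, and 2 libraries a TF limit every test between TFs.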
